A study of Mus musculus with 6 samples.

Results

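The 10 genes described here set the pace of the G1 phase of the cell cycle. They are the D-type cyclins Ccnd1, Ccnd2 and Ccnd3, their partner kinases Cdk4 and Cdk6, the Cip/Kip inhibitors Cdkn1a (p21), Cdkn1b (p27) and Cdkn1c (p57), and the INK4 inhibitors Cdkn2a (p16, with p19Arf from the same locus) and Cdkn2c (p18). They were chosen by gene symbol and are 10 of the 12436 genes listed in the single-cell RNA tables of a study of mouse skeletal muscle repair. The study asked how muscle-resident cells respond to injury in hypothyroid mice compared with control mice. Cells came from the tibialis anterior muscle before injury (day 0) and 5 or 14 days after it (days post injury, dpi), and 1 library was made per diet and day from the pooled muscles of 3 male mice, which gives 6 libraries. Hypothyroid mice ate an iodine-deficient diet with 0.15% propylthiouracil, a drug that blocks thyroid hormone synthesis, from before the injury until the end, and control mice ate a matched diet without the drug. Injury was an injection of cardiotoxin, a snake venom protein that destroys myofibers, at 50 µg/ml. Both diets used mice aged 3 to 5 months that carried the allele Gt(ROSA)26Sor<tm1(Fucci2aR)Jkn, a fluorescent cell cycle reporter, on a B6;129 background, and per the methods the mice used for transcriptome work were negative for Pax7-Cre.

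D-type cyclins are made when a cell receives growth signals. They bind CDK4 or CDK6, and the complex phosphorylates the retinoblastoma protein, which then releases E2F factors that switch on genes for DNA synthesis. INK4 proteins bind the kinases themselves, whereas Cip/Kip proteins bind cyclin and kinase together. In skeletal muscle, p21 and p57 are known for holding differentiating myoblasts out of the cell cycle, and p16 is known as a marker of senescence.

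The first run of columns in each table held 11207 cells with 2283737 to 23496517 unique molecular identifiers (UMIs, each standing for 1 captured RNA molecule) per library, and the median UMIs per cell were 3634 to 8055, with the highest medians in the hypothyroid libraries at 5 and 14 dpi. Cells were sorted by marker genes into 11 classes named by likeness, the largest being FAP-like (fibro-adipogenic progenitor, the connective tissue cell of muscle) with 4915 cells, endothelial-like with 1243 and monocyte/macrophage-like with 1013. There were 426 myogenic progenitor-like cells, and 1313 cells stayed without a class. The Schwann-like marker Gfra3, the myogenic marker Calcr, the NK marker Klra8 and 5 of 10 neutrophil markers were not listed, and RNA of myofibers reached other classes, since the 12 myocyte genes summed to 248 to 12659 CPM (counts scaled to 1000000 per pool) in FAP-like cells. First runs of different libraries shared 12 barcodes, and 0 of these had the same UMIs. The later columns of the tables, 9062 in number, were not used, and 1680 of them were copies of first-run cells from another table. Whether the cells of a first run come from the labelled condition was not tested. With 1 library per diet and day there is no test. Levels are given as CPM of the UMIs summed over a class in a library, called a pool, with an exact 95% Poisson interval, and ratios have an exact conditional binomial interval. Both intervals cover counting error only, not the spread between mice, and UMIs of 1 cell are not independent. A ratio was read as past 2-fold where both pools held at least 30 cells, at least 20 UMIs together and at least 10 CPM in the higher pool. Tags come from the 3′ end of transcripts, so levels are compared between pools and not between genes.

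Positions are those of the files, on the mm39 build. Ccnd1 is at chr7:144483668-144493662, Ccnd2 at chr6:127102125-127129156 and Ccnd3 at chr17:47815976-47910616. Cdk4 is at chr10:126899403-126903789 and Cdk6 at chr5:3391485-3581008. Cdkn1a is at chr17:29309950-29319701, Cdkn1b at chr6:134897364-134902476, Cdkn1c at chr7:143012076-143014787, Cdkn2a at chr4:89192708-89212890 and Cdkn2c at chr4:109518073-109524386. Listed genes on the opposite strand overlap Ccnd1 (LTO1), Ccnd3 (Bysl) and Cdk4 (Tspan31), and whether counting used strand is not given in the sources used here, so reads of such pairs may be shared.

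Cdkn2a is the member whose identity the counts leave least certain, because 2 start sites feed transcripts with the same 3′ end, one encoding p16 and the other p19Arf, and both are counted in 1 row. The 250 bases before each start are shown for that reason, from the RefSeq table of build GRCm38.p6, on the minus strand and read 5′ to 3′. Capitals mark a match to an E2F motif, searched on both strands as TTTCCCGC, TTTCGCGC, TTTGCCGC and TTTGGCGC. The farther start, at chr4:89294620-89294869, has a match beginning 99 bases before the start, and the nearer, at chr4:89282193-89282442, has none of these letters in its window. Over all windows of this length, 611 of 32851 (1.86%) hold a match. Among the members, 7 of 10 have an entry, with 11 windows, and 1 window holds a match. Ccnd1, Ccnd2 and Cdkn1c have no entry.
Cdkn2a, farther start: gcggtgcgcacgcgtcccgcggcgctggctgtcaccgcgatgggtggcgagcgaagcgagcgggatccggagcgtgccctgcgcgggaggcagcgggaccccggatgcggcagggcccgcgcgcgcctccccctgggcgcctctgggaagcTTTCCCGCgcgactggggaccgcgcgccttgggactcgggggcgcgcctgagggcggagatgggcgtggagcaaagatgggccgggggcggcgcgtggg
Cdkn2a, nearer start: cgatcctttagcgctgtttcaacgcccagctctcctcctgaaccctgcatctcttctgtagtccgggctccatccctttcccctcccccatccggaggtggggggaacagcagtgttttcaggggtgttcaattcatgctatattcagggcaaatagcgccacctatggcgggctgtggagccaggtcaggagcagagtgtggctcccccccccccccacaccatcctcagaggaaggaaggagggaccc

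Each gene had its own distribution over the cell classes, which was clearest for the extremes. Over the 38 pools of at least 30 cells, Cdkn1a ran from 21.1 CPM in myocyte-like cells of hypothyroid mice at day 0 to 1414 CPM in Schwann-like cells of control mice at day 0, and was above 0 in all 38. Cdkn1c was highest in myogenic progenitor-like cells of hypothyroid mice at 14 dpi, at 1414 CPM, and at 0 UMIs in B cell-like cells of control mice at day 0. Ccnd1 was highest in Schwann-like cells of control mice at 14 dpi, at 671 CPM, and Ccnd2 in T cell-like cells of control mice at 5 dpi, at 670 CPM. Ccnd3 had its highest pools in B cell-like cells of control mice, at 149 CPM at 5 dpi and 147 CPM at day 0. Ccnd1 in B cell-like cells at 5 dpi was 59.6 CPM (6 UMIs) in control and 0 UMIs in hypothyroid mice. Cdk4 and Cdk6 were highest in myogenic progenitor-like cells, at 224 CPM in hypothyroid mice at 5 dpi and 289 CPM in hypothyroid mice at 14 dpi. Cdkn1b was highest in Schwann-like cells of control mice at day 0, at 220 CPM. Cdkn2a was at 0 UMIs in 16 of 38 pools and reached 50 CPM in 1, and Cdkn2c was at 0 UMIs in 7 pools and reached 50 CPM in 1.

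**Figure D1:**
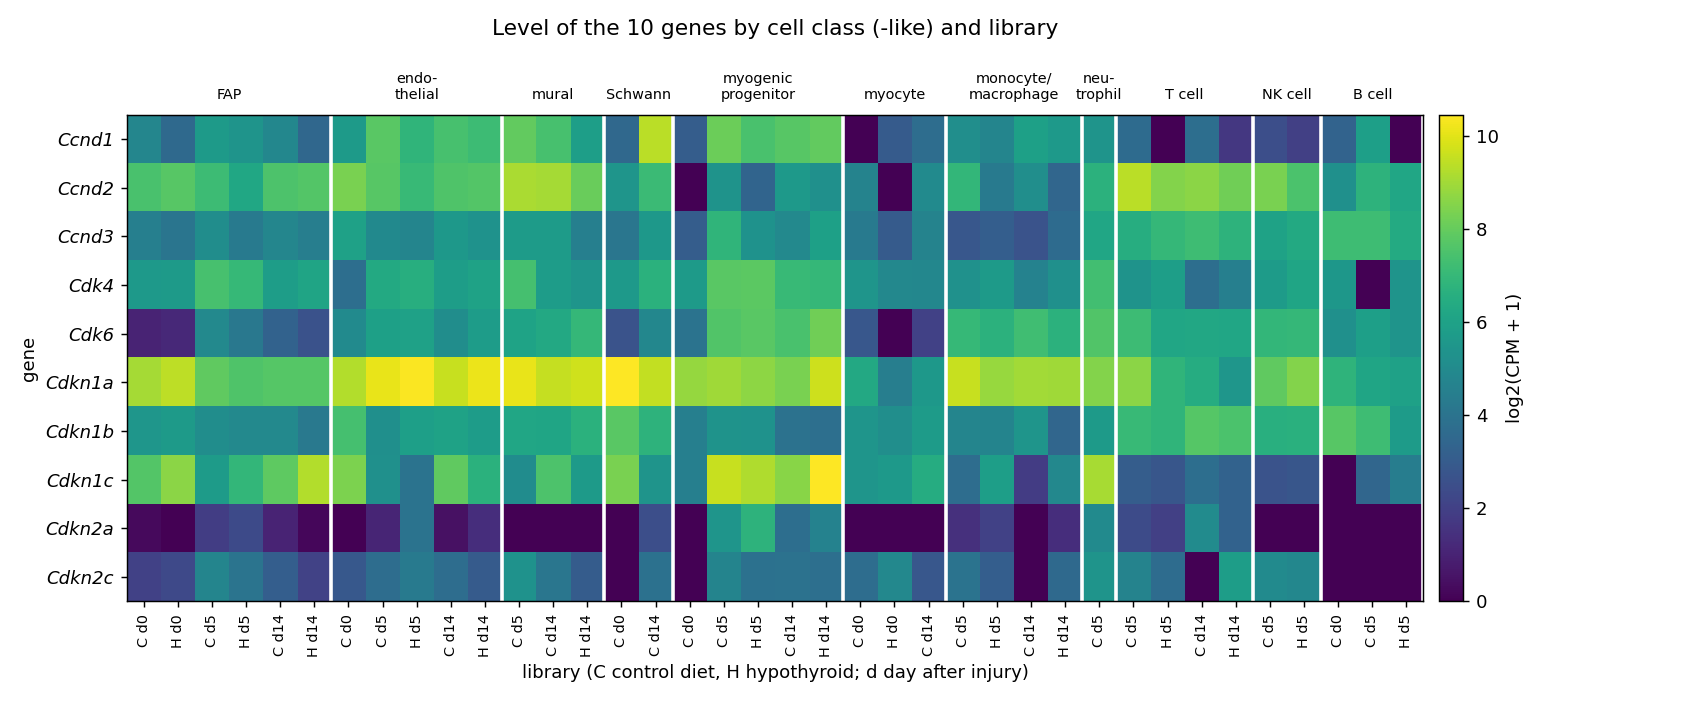
Level of each gene, as log2(CPM + 1) by colour, in the 38 pools of a cell class and a library with at least 30 cells, where C is the control diet, H is hypothyroid and d is the day after injury. Cdkn1a is brightest in a Schwann-like pool and darkest in a myocyte-like one, Cdkn1c is brightest in the myogenic progenitor-like pool of hypothyroid mice at 14 dpi, and Cdkn2a is at 0 in 16 pools and brightest in the myogenic progenitor-like pool of hypothyroid mice at 5 dpi.

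The diets could be compared in 15 pairs of pools. Over these, 150 gene and pair combinations gave 102 that passed the filter on low counts, and 25 were past 2-fold, 9 higher and 16 lower in hypothyroid mice. At day 0, 1 of 7 members that passed was past 2-fold in FAP-like cells (Ccnd1, lower), where 5.66% of all genes that passed were. In myocyte-like cells at day 0 no member had enough counts, and 17.2% of all genes that passed were past 2-fold.

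At 5 dpi, 1 of 9 members was past 2-fold in FAP-like cells (Cdkn1c, higher) against 10.3% of all genes. In endothelial-like cells the count was 1 of 8 (Cdkn1c, lower) against 17.0%. In myogenic progenitor-like cells it was 3 of 10 (Cdkn2a higher, Ccnd2 and Ccnd3 lower) against 15.7%. In monocyte/macrophage-like cells it was 2 of 8 (Cdkn1c higher, Ccnd2 lower) against 20.3%. In T cell-like cells it was 2 of 7 (Cdkn1a and Cdkn2c, both lower) against 22.3%. In NK cell-like cells it was 0 of 7 against 14.6%, and in B cell-like cells 1 of 2 (Cdkn1b, lower) against 24.3%. The median ratio of all genes at 5 dpi lay between 0.789 in myogenic progenitor-like and 0.897 in endothelial-like cells, so a member ratio slightly below 1 at this day was near that of most genes. The hypothyroid cells at 5 dpi were also the most deeply sequenced, and the part of depth in these ratios was not tested.

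At 14 dpi, 2 of 7 members were past 2-fold in FAP-like cells (Cdkn1c higher, Ccnd1 lower) against 5.47% of all genes. In endothelial-like cells the count was 1 of 9 (Cdkn1c, lower) against 7.54%. In mural-like cells, the smooth muscle cells and pericytes of vessels, it was 3 of 8 (Cdkn1c, Ccnd1 and Ccnd3, each lower) against 22.8%. The mural-like Ccnd3 ratio was 0.417 from 3 hypothyroid and 38 control UMIs, and its interval (0.0823 to 1.31) includes 1. In myogenic progenitor-like cells the count was 3 of 7 (Cdkn1a, Cdkn1c and Ccnd3, each higher) against 12.2%. In monocyte/macrophage-like cells it was 3 of 7 (Cdkn1c higher, Ccnd2 and Cdkn1b lower) against 16.1%. In T cell-like cells it was 2 of 6 (Cdkn2c higher, Cdkn1a lower) against 14.2%. Cdkn1c made up 8 of the 25 ratios past 2-fold, from 10 comparisons in which it passed the filter, and Cdk4 and Cdk6 made up 0, from 12 and 11. Several of the Cdkn1c ratios depended on the processing. With all columns of each table they were 0.894 in FAP-like cells at 5 dpi and 0.457 in monocyte/macrophage-like cells at 14 dpi. With cells thinned to 1000 UMIs the endothelial-like ratio at 5 dpi was 1.29, and the mural-like one was within 2-fold.

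**Figure D2:**
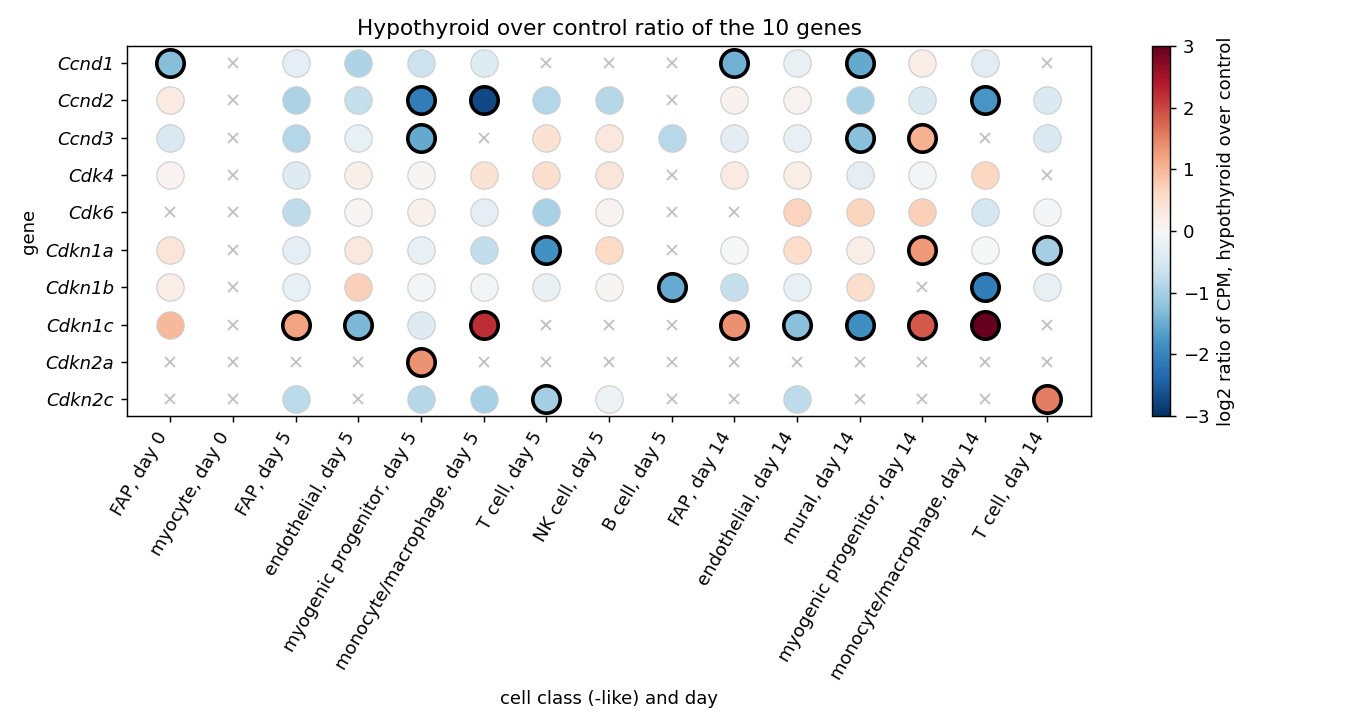
Hypothyroid over control ratio of CPM, as log2 by colour, for each gene (rows) in 15 pairs of pools (columns), with red for higher in hypothyroid mice. Black rings mark ratios past 2-fold, crosses mark pairs that did not pass the filter on low counts, and colours end at a log2 ratio of 3 in either direction. Cdkn1c holds red and blue rings in different classes, and Cdk4 and Cdk6 hold no ring.

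Among the D cyclins, Ccnd1, the cyclin most directly tied to mitogen signals, was at a low level in FAP-like cells and lower in hypothyroid mice at day 0 and 14 dpi. Its level in control FAP-like cells was 26.7 CPM at day 0, 50.9 at 5 dpi and 27.7 at 14 dpi. In hypothyroid FAP-like cells it was 11.1 CPM at day 0, 41.7 at 5 dpi and 10.3 at 14 dpi. Both diets thus had their highest value at 5 dpi, and the diets stood furthest apart before injury and at 14 dpi. The hypothyroid over control ratio was 0.414 (95% interval 0.234 to 0.691) at day 0, from 17 and 124 UMIs. At 5 dpi it was 0.818 (0.708 to 0.947), close to the median of all genes, and turned to 1.04 with median ratio scaling and 1.20 with all columns of each table, so no direction is read at that day. Later, at 14 dpi, it was 0.371 (0.288 to 0.474). At day 0 the ratio moved to 0.942 when each cell was thinned to 1000 UMIs, and at 14 dpi to 0.817 as a mean of log values over cells.

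Ccnd1 in endothelial-like cells, which line vessels, was 50.6 CPM at day 0, 217 at 5 dpi and 169 at 14 dpi in control mice, and 115 and 144 CPM at 5 and 14 dpi in hypothyroid mice. The ratio between diets was 0.529 (0.350 to 0.777) at 5 dpi and 0.853 (0.715 to 1.02) at 14 dpi, so neither was past 2-fold, and with all columns of each table the former was 1.39. In mural-like cells at 14 dpi Ccnd1 was 168 CPM in control and 58.1 CPM in hypothyroid mice, a ratio of 0.346 (0.146 to 0.704) that rests on 8 UMIs in the hypothyroid pool, 75.0% of them in 1 cell. In Schwann-like cells, the glia of nerves, Ccnd1 was 10.7 CPM at day 0 and 671 CPM at 14 dpi in control mice. Over all comparisons Ccnd1 was lower in hypothyroid mice in 9 of the 10 that passed the filter, with an interval wholly below 1 in 6 and a ratio past 2-fold in 3. At 5 dpi the median ratio of all genes was also below 1, at 0.789 to 0.897. The 6 include the FAP-like and endothelial-like ratios at 5 dpi, which turned to 1.20 and 1.39 with all columns of each table.

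Ccnd1 in myogenic progenitor-like cells was 7.41 CPM (1 UMI) at day 0, 277 at 5 dpi and 213 at 14 dpi in control mice. It was 0 UMIs in 22 cells at day 0, 177 CPM at 5 dpi and 250 CPM at 14 dpi in hypothyroid mice. Uninjured myogenic cells thus held almost no Ccnd1 in either diet, at low counts. The ratio between diets was 0.640 (0.556 to 0.739) at 5 dpi and 1.17 (0.889 to 1.55) at 14 dpi.

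Ccnd2, the D cyclin of lymphocytes and of many stromal cells, was lower at 5 dpi in hypothyroid mice in each class that could be compared. In FAP-like cells it was 177, 145 and 184 CPM at 0, 5 and 14 days in control mice, and 214, 74.9 and 202 CPM in hypothyroid mice. The dip at 5 dpi was therefore deeper in hypothyroid FAP-like cells, with a ratio between diets of 0.515 (0.469 to 0.566), against 1.21 (1.06 to 1.38) at day 0 and 1.10 (1.03 to 1.17) at 14 dpi. The same day gave 0.607 (0.411 to 0.875) in endothelial-like, 0.542 (0.442 to 0.659) in T cell-like and 0.551 (0.452 to 0.667) in NK cell-like cells. These values are below the median ratio of all genes in the same pools and within 2-fold, and the endothelial-like ratio was 1.15 as a mean of log values.

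The largest gaps in Ccnd2 were in monocyte/macrophage-like and myogenic progenitor-like cells at 5 dpi. Monocyte/macrophage-like cells held 120 CPM in control and 18.4 CPM in hypothyroid mice, a ratio of 0.154 (0.117 to 0.202). At 14 dpi the values were 34.6 and 10.1 CPM, a ratio of 0.292 (0.125 to 0.684) from 13 UMIs in each pool. The control class at 5 dpi held more cells without complement C1q, 95 of 198 against 43 of 577 in hypothyroid mice. Ccnd2 was 264 CPM in those control cells and 27.4 CPM in the C1q-positive ones, against 51.5 and 17.1 CPM in hypothyroid mice, a split chosen after the values were seen. With the stricter gate the ratio at 5 dpi was 0.598. Ccnd2 in myogenic progenitor-like cells at 5 dpi was 40.0 CPM in control and 9.42 CPM in hypothyroid mice, a ratio of 0.235 (0.138 to 0.390). With cells grouped by clustering it was 0.658. The 50 control UMIs lay in 9 of 95 cells, and 1 cell held 42.0% of them. Thinned cells held 4 UMIs in control and 2 in hypothyroid mice. In mural-like cells at 14 dpi Ccnd2 was 528 and 269 CPM, a ratio of 0.509 (0.353 to 0.714) that was 1.04 with thinned cells.

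Ccnd3, the D cyclin that accumulates in differentiating myoblasts, turned direction between days in myogenic progenitor-like cells. At 5 dpi it was 114 CPM in control and 39.3 CPM in hypothyroid mice, a ratio of 0.345 (0.265 to 0.449). At 14 dpi it was 29.3 CPM in control and 61.4 CPM in hypothyroid mice, a ratio of 2.10 (1.07 to 4.31) from 14 and 28 UMIs. Across the days the control pool was the one that stood much lower at 14 dpi. Without the 1 cell holding the most Ccnd3 in each pool, the ratio at 14 dpi was 1.28, and at 5 dpi it was 0.365. Myog, the transcription factor of terminal differentiation, was 443 and 87.9 CPM at 5 dpi and 119 and 476 CPM at 14 dpi in control and hypothyroid cells. At 5 dpi Ccnd3 was 170 CPM in control cells with a Myog UMI and 92.4 CPM in the others. In hypothyroid cells the values were 34.2 CPM (13 UMIs) and 40.1 CPM, so the hypothyroid level was the lower in both subsets. This split was chosen after the values were seen, and the part of Myog in the diet ratios was not tested. In FAP-like cells Ccnd3 was 34.2 and 18.4 CPM at 5 dpi, with a ratio of 0.540 (0.444 to 0.656). In B cell-like cells at 5 dpi it was 149 and 83.3 CPM, with an interval of the ratio from 0.205 to 1.40.

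The kinases stayed within 2-fold between diets in each comparison that passed the filter. Cdk4 in FAP-like cells was 48.5, 168 and 55.7 CPM at 0, 5 and 14 days in control mice, and 51.4, 129 and 67.6 CPM in hypothyroid mice. Cdk4 in myogenic progenitor-like cells was 51.8, 218 and 132 CPM in control mice, and 106, 224 and 125 CPM in hypothyroid mice. The level was thus highest at 5 dpi in both classes and both diets. Between diets, its ratio in myogenic progenitor-like cells was 1.03 (0.889 to 1.19) at 5 dpi and 0.948 (0.651 to 1.38) at 14 dpi. Over the 12 comparisons that passed the filter it ran from 0.767 in FAP-like cells at 5 dpi to 1.56 in monocyte/macrophage-like cells at 14 dpi. With all columns of each table the FAP-like value was 1.20.

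Cdk6 was close to absent from uninjured FAP-like cells, at 1.08 CPM (5 UMIs) in control and 1.30 CPM (2 UMIs) in hypothyroid mice, and stood at 29.4 and 17.3 CPM at 5 dpi and 8.73 and 5.19 CPM at 14 dpi. The FAP-like ratio between diets at 5 dpi, 0.587 (0.478 to 0.722), turned to 1.85 with thinned cells and 1.01 with all columns of each table. In myogenic progenitor-like cells Cdk6 was 14.8, 199 and 176 CPM at 0, 5 and 14 days in control mice, and 24.5, 220 and 289 CPM in hypothyroid mice. The day 0 values there rest on 2 control and 3 hypothyroid UMIs, the latter in only 22 cells. In monocyte/macrophage-like cells Cdk6 was 129 and 105 CPM at 5 dpi and 154 and 106 CPM at 14 dpi in control and hypothyroid mice. Its ratio between diets was lowest in T cell-like cells at 5 dpi, at 0.508 (0.315 to 0.789) and 1.14 with all columns of each table, and highest in myogenic progenitor-like cells at 14 dpi, at 1.65 (1.24 to 2.19), and 0 of 11 were past 2-fold.

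Of the Cip/Kip inhibitors, Cdkn1a, the main p53-induced inhibitor, was the member found in most cells, with a UMI in 49.5% of them. In FAP-like cells it was 525, 237 and 209 CPM at 0, 5 and 14 days in control mice, and 686, 192 and 208 CPM in hypothyroid mice. Its level was thus highest before injury in both diets, and the diets lay within 2-fold at each day, at ratios of 1.31 (1.22 to 1.41), 0.812 (0.759 to 0.868) and 0.993 (0.932 to 1.06). Endothelial-like cells went the other way over time, at 607, 1097 and 778 CPM in control mice, and stood at 1373 and 1139 CPM at 5 and 14 dpi in hypothyroid mice. There the ratio between diets was 1.25 (1.11 to 1.41) at 5 dpi and 1.46 (1.37 to 1.57) at 14 dpi.

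Cdkn1a in myogenic progenitor-like cells was 496 and 416 CPM at 5 dpi and 331 and 818 CPM at 14 dpi in control and hypothyroid mice. The ratio was 0.839 (0.759 to 0.928) at 5 dpi and 2.47 (2.05 to 3.00) at 14 dpi, where 43 hypothyroid and 82 control cells were compared. The lowest value over the alternatives was 1.63, with all columns of each table. In T cell-like cells the direction was opposite, at 400 and 114 CPM at 5 dpi, with a ratio of 0.286 (0.199 to 0.399), and 88.9 and 44.2 CPM at 14 dpi, where the ratio was 0.497 (0.239 to 1.06). The T cell-like value at 5 dpi was 0.836 with all columns of each table and 0.753 with cells grouped by clustering. Cdkn1a in monocyte/macrophage-like cells was 767 and 457 CPM at 5 dpi, with a ratio of 0.595 (0.551 to 0.645) that was 1.28 with cells grouped by clustering. In the C1q-negative cells of that class it was 1445 CPM in control and 1839 CPM in hypothyroid mice, and in the C1q-positive cells 334 and 401 CPM, so within each subset the hypothyroid level was the higher.

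Cdkn1b, the inhibitor that marks quiescent cells, was highest in lymphocyte and Schwann classes and lower in FAP-like cells, where it was 44.1, 34.5 and 29.1 CPM at 0, 5 and 14 days in control and 51.4, 29.1 and 17.7 CPM in hypothyroid mice. The ratio between diets in FAP-like cells at 14 dpi was 0.609 (0.497 to 0.745). It was past 2-fold in 2 of 13 comparisons, both on few UMIs. These were monocyte/macrophage-like cells at 14 dpi, at 42.5 and 10.1 CPM with a ratio of 0.237 (0.105 to 0.526), and B cell-like cells at 5 dpi, at 149 and 52.0 CPM with a ratio of 0.349 (0.0993 to 1.01).

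Cdkn1c, an imprinted gene expressed from the maternal allele and an inhibitor of cells leaving the cycle, was past 2-fold between diets in both directions. In FAP-like cells it was 203 CPM (190 to 216) at day 0, 53 CPM (47.3 to 59.2) at 5 dpi and 236 CPM (226 to 245) at 14 dpi in control mice. In hypothyroid mice it was 399 CPM (368 to 432), 122 CPM (116 to 128) and 606 CPM (589 to 623). The hypothyroid level was the higher at each day, and both diets had their lowest level at 5 dpi. The ratio was 1.97 (1.77 to 2.18) at day 0, 2.30 (2.04 to 2.61) at 5 dpi and 2.57 (2.45 to 2.70) at 14 dpi. At equal depth, with each cell thinned to 1000 UMIs, a Cdkn1c UMI was seen in 16.3% and 26.9% of control and hypothyroid FAP-like cells at day 0, in 4.66% and 9.92% at 5 dpi and in 16.7% and 30.1% at 14 dpi. Before thinning these shares were 39.6% and 53.5%, 26.2% and 33.0%, and 42.8% and 70.5%. In T cell-like cells at 5 and 14 dpi, which served as the background for free RNA, the thinned share was between 0 and 1.37%. A share of 0 among 53 cells allows up to 6.72% (exact binomial). At day 0 there were 16 control and 4 hypothyroid T cell-like cells, too few for a pool, so the day 0 shares have no such background. The median depth was 4396 to 13875 UMIs in the FAP-like pools and 2321 to 3464 in the T cell-like pools. With all columns of each table the ratio at 5 dpi was 0.894, so the direction at that day depends on which columns are taken as the library.

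Vessel cells at 14 dpi went the opposite way. In endothelial-like cells Cdkn1c was 335 CPM at day 0, 37.5 at 5 dpi and 243 at 14 dpi in control mice, and 14.8 CPM at 5 dpi and 102 CPM at 14 dpi in hypothyroid mice. The ratio was 0.420 (0.345 to 0.508) at 14 dpi, from 129 and 656 UMIs, and 0.395 (0.102 to 1.11) at 5 dpi, from 4 and 33 UMIs. Thinning to 1000 UMIs left 1 and 3 UMIs at 5 dpi and a ratio of 1.29, so no direction is read at that day. In mural-like cells at 14 dpi it was 184 and 50.8 CPM, a ratio of 0.276 (0.109 to 0.584), and 49.3% of the control UMIs were in 1 cell. With cells thinned to 1000 UMIs or grouped by clustering, the mural-like ratio was 0.976 and 0.999. The endothelial-like ratio at 14 dpi was between 0.248 and 0.673 over the alternatives, so its direction held in each.

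Cdkn1c in myogenic progenitor-like cells was 22.2 and 24.5 CPM at day 0 (3 UMIs in each diet), 768 and 592 CPM at 5 dpi, and 393 and 1414 CPM at 14 dpi in control and hypothyroid mice. The level was thus low before injury in both diets, within 2-fold between them at 5 dpi and further apart at 14 dpi. The ratio was 0.771 (0.711 to 0.837) at 5 dpi, near the median of all genes in that pair, and 3.60 (3.05 to 4.25) at 14 dpi. Single cells weighed on the later value, since 1 cell held 171 of 645 UMIs in the hypothyroid pool and 73 of 188 in the control pool. Without the top cell of each pool the ratio was 4.34, and over the alternatives it was 1.76 to 13.7. Cells with a Myog UMI were 8 of 43 in hypothyroid and 4 of 82 in control mice at 14 dpi, and 23 of 152 and 21 of 95 at 5 dpi. At 5 dpi Cdkn1c was 1808 CPM in control cells with a Myog UMI and 379 CPM in the others, and 1411 and 448 CPM in hypothyroid cells, a split chosen after the values were seen. The part of this differentiation state in the diet ratio was not tested.

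Cdkn1c in monocyte/macrophage-like cells was 12.3 and 57.1 CPM at 5 dpi in control and hypothyroid mice, with a ratio of 4.64 (2.72 to 8.60). At 14 dpi the values were 2.66 CPM (1 UMI) and 28.7 CPM, with a ratio of 10.8 (1.82 to 438). With all columns of each table this later ratio was 0.457, and thinned cells held 4 UMIs in the hypothyroid and 0 in the control pool, which gives 0.832 against a floor of 3 UMIs. Few cells carried these UMIs. At 5 dpi 36 of 577 hypothyroid cells had one, and 1 cell held 42.5% of the UMIs. The 36 cells had a median of 19312.5 UMIs and 5370 CPM of summed FAP markers, against 6185 UMIs and 1134 CPM in the other cells of the pool. At 14 dpi the 18 hypothyroid cells with a UMI had 4938 CPM of FAP markers against 194 CPM in the others. At equal depth the share with a UMI at 5 dpi was 1.04% in control and 0.737% in hypothyroid cells, from 2 of 193 and 4 of 543. It was no higher than the 1.37% and 1.14% of T cell-like cells. At 14 dpi it was 0 of 83 control cells, which allows up to 4.35%, and 2.26% (0.468 to 6.45) of hypothyroid cells, from 3 of 133, against 0.870% (0.0220 to 4.75) of T cell-like cells in the same library. These intervals overlap. The only neutrophil-like pool held 52 Cdkn1c UMIs, all in 1 cell.

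**Figure D3:**
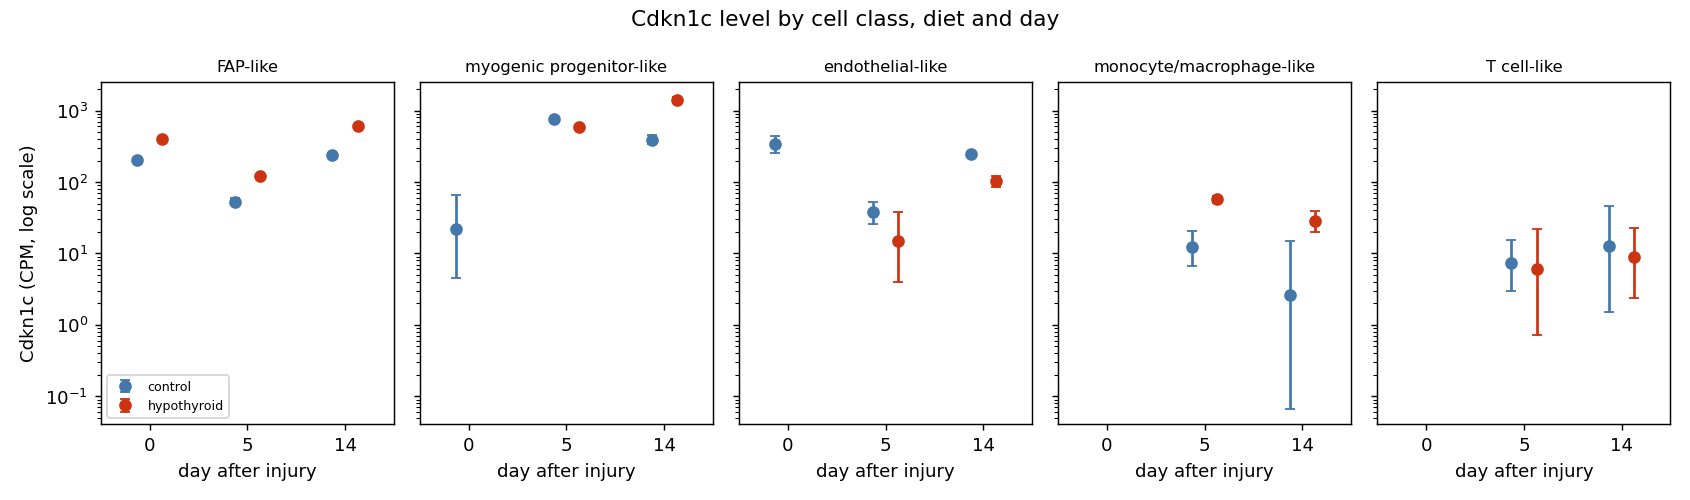
Level of Cdkn1c in CPM (log scale) by day after injury in 5 cell classes, with blue for control and red for hypothyroid pools and bars for the exact 95% Poisson interval. Pools under 30 cells are not drawn. Red lies above blue at each day in FAP-like cells, below it in endothelial-like cells at 5 and 14 dpi, and on either side in myogenic progenitor-like cells.

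The INK4 inhibitors were sparse. Cdkn2a, with 620 UMIs in 255 of the 11207 cells, was concentrated in myogenic progenitor-like cells. It was 0 UMIs in 32 control and 22 hypothyroid cells at day 0, 42.4 and 108 CPM at 5 dpi, and 12.6 and 24.1 CPM at 14 dpi. The exact interval for a count of 0 reaches 27.3 CPM (control) and 30.1 CPM (hypothyroid) in the day 0 pools, so an uninjured level like that at 14 dpi was not detectable at this depth. The ratio between diets at 5 dpi was 2.54 (1.89 to 3.48), from 275 and 53 UMIs, and 2.34 to 5.95 over the alternatives, each past 2-fold. Outside this class the highest pools were T cell-like cells of control mice at 14 dpi, at 31.7 CPM (10.3 to 74.1) from 5 UMIs in 3 cells, neutrophil-like cells of control mice at 5 dpi, at 31.1 CPM from 3 UMIs in 1 cell, and endothelial-like cells of hypothyroid mice at 5 dpi, at 14.8 CPM from 4 UMIs in 1 cell. In FAP-like cells Cdkn2a did not exceed 4.04 CPM, and in mural-like, myocyte-like, NK cell-like and B cell-like pools of at least 30 cells it was at 0 UMIs.

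Cdkn2c, an E2F-responsive inhibitor found in dividing and differentiating cells, followed the day in FAP-like cells. It was 3.01, 26.4 and 7.86 CPM at 0, 5 and 14 days in control mice, and 3.9, 15.2 and 3.14 CPM in hypothyroid mice. The ratio between diets at 5 dpi was 0.574 (0.461 to 0.715), and 1.12 with all columns of each table, and at 14 dpi neither pool reached 10 CPM. Myogenic progenitor-like cells at 5 dpi held 25.6 and 14.1 CPM, a ratio of 0.552 (0.333 to 0.917), and in monocyte/macrophage-like cells 15 and 7.62 CPM, a ratio of 0.510 (0.281 to 0.963), or 1.02 as a mean of log values. T cell-like cells at 14 dpi held 0 UMIs in control and 25 UMIs (55.2 CPM) in hypothyroid mice, at least 2.19-fold higher by the exact interval and 2.90-fold against a floor of 3 UMIs per pool. Thinned cells held 4 and 0 UMIs, which gives 0.614 against the same floor. At 5 dpi the same class had 24.5 and 12 CPM, a ratio of 0.490 (0.123 to 1.43) from 23 and 4 UMIs, which turned to 1.66 with thinned cells and 1.71 with cells grouped by clustering.

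Between days, 73 gene and pair combinations passed the filter and 35 were past 2-fold, 18 higher and 17 lower at the later day. In control FAP-like cells, 5 of 9 members were past 2-fold from day 0 to 5 dpi, where 30.4% of all genes were, and 4 of 9 from 5 to 14 dpi, against 20.9%. In hypothyroid FAP-like cells the counts were 7 of 9 against 38.6% and 5 of 9 against 24.8%. In control endothelial-like cells they were 5 of 8 against 31.7% and 1 of 9 against 18.7%. In control myogenic progenitor-like cells they were 5 of 10 against 44.1% and 3 of 10 against 34.0%. The comparisons of successive days share the 5 dpi pool, so a value that is high at 5 dpi enters both.

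In control FAP-like cells from day 0 to 5 dpi, Cdk6 was 27.4-fold higher (11.5 to 85.3), Cdkn2c 8.76-fold (5.07 to 16.4) and Cdk4 3.47-fold (3.00 to 4.03). The Cdk6 ratio rests on 5 UMIs at day 0, and its size depended on the processing. It was 4.71 with thinned cells, below that interval, and 2.27 to 43.2 over the alternatives, each past 2-fold. Over the same days Cdkn1a stood at 0.452 (0.423 to 0.483) and Cdkn1c at 0.261 (0.229 to 0.297) of the day 0 level. From 5 to 14 dpi Cdkn1c was 4.45-fold higher (3.95 to 5.02), while Cdkn2c, Cdk4 and Cdk6 stood at 0.298, 0.331 and 0.297 of the 5 dpi level. The kinases and Cdkn2c were thus high when Cdkn1c was low. In hypothyroid FAP-like cells the same 5 genes were past 2-fold in the same directions at 5 dpi, with Ccnd1 3.77-fold higher (2.33 to 6.52) and Ccnd2 at 0.350 (0.308 to 0.398) besides. From 5 to 14 dpi in hypothyroid mice Cdkn1c was 4.97-fold higher (4.69 to 5.27) and Ccnd2 2.70-fold (2.49 to 2.93), and Ccnd1 stood at 0.246 (0.193 to 0.310).

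**Figure D4:**
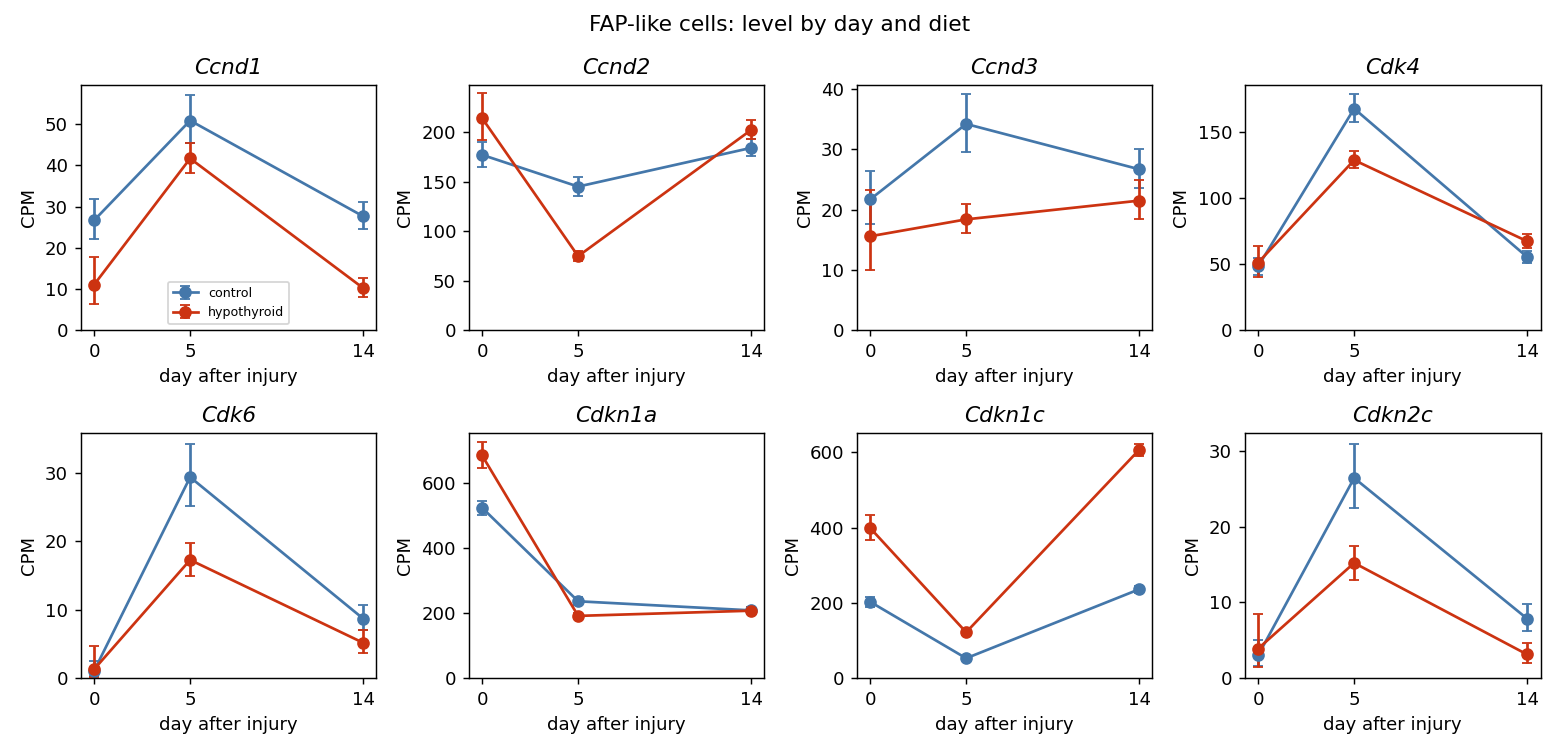
Level in CPM of 8 members in FAP-like cells by day after injury, with blue for control and red for hypothyroid mice and bars for the exact 95% Poisson interval. Cdk4, Cdk6 and Cdkn2c peak at 5 dpi in both diets, Cdkn1c is lowest at 5 dpi in both, and the red line for Cdkn1c lies above the blue line at each day.

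In control endothelial-like cells from day 0 to 5 dpi, Cdkn1c stood at 0.112 (0.0701 to 0.176) and Cdkn1b at 0.221 (0.128 to 0.386) of the day 0 level, Ccnd3 at 0.485 (0.227 to 1.12) but 1.17 as a mean of log values, and Ccnd1 was 4.28-fold higher (2.13 to 10.1). Cdk4 was 6.46-fold higher (1.72 to 54.4), on 2 UMIs at day 0, and thinned cells held 6 UMIs at 5 dpi and 0 at day 0, which gives 0.933 against the floor. From 5 to 14 dpi Cdkn1c was 6.49-fold higher (4.58 to 9.51), and 1.20-fold with all columns of each table. In control myogenic progenitor-like cells from day 0 to 5 dpi, Cdkn1c was 34.6-fold higher (11.8 to 168), Ccnd1 37.4-fold (6.67 to 1482), Ccnd3 15.4-fold (2.71 to 611), Cdk6 13.4-fold (3.67 to 111) and Cdk4 4.20-fold (2.01 to 10.5), on 1 to 7 UMIs each at day 0. In this pair the 474 genes with at least 50 UMIs in both pools had a median ratio of 0.559. So Cdkn1c, Ccnd1, Ccnd3, Cdk4 and Cdk6 were higher at 5 dpi in that class, unlike FAP-like cells, where Cdkn1c was lower. This difference between classes was not tested. Of the other Cip/Kip inhibitors in the myogenic pair, Cdkn1a stood at 1.12 (0.855 to 1.48) and Cdkn1b at 1.84 (0.594 to 9.21). From 5 to 14 dpi Ccnd3 stood at 0.258 (0.137 to 0.447), Cdkn2a at 0.296 (0.104 to 0.688) and Cdkn1b at 0.359 (0.137 to 0.794). Thinned cells held 2 Cdkn2a UMIs at 5 dpi and 0 at 14 dpi, which gives 1.78 against the floor.

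Within a class and library, cells in cycle were separated from other cells by 25 genes of DNA replication and mitosis that hold no member. Cycling cells had UMIs of at least 3 of these genes after thinning to 1000 UMIs, and the other cells had 0. Among FAP-like cells at 5 dpi, 18.4% (exact binomial 14.7 to 22.5) were cycling in control and 8.17% (6.36 to 10.3) in hypothyroid mice, against 0 to 0.243% at the other days. Among myogenic progenitor-like cells at 5 dpi the shares were 20.2% (12.6 to 29.8) and 17.3% (11.6 to 24.4), and among NK cell-like cells 12.6% (10.1 to 15.5) and 17.1% (10.8 to 25.2). Enough cells on both sides were found in 5 pools, which gave 40 gene and pool combinations past the filter, 11 of them past 2-fold. By pool these were 3 of 9 members in control FAP-like cells against 15.6% of all genes, 3 of 9 in hypothyroid FAP-like cells against 18.7%, 2 of 9 in hypothyroid myogenic progenitor-like cells against 15%, and in NK cell-like cells 2 of 7 in control mice against 15.8% and 1 of 6 in hypothyroid mice against 16.2%. Cycling cells were deeper, with medians of 20625 against 10977 UMIs in control FAP-like cells. Cells of 1 library are not replicates, so these ratios are a description.

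Cdkn2c was higher in cycling cells in 4 of the 4 pools where it passed. It was 65.5 against 10.1 CPM in control FAP-like cells, a ratio of 6.45 (4.22 to 10.1), and 55.4 against 7.28 CPM in hypothyroid FAP-like cells, a ratio of 7.62 (5.23 to 11.1). Myogenic progenitor-like cells of hypothyroid mice gave 4.04 (1.77 to 9.79) and NK cell-like cells of control mice 3.80 (2.14 to 7.06). Cdkn1c was lower in cycling cells in 3 of 3 pools. It was 20.9 against 80.8 CPM in control FAP-like cells, a ratio of 0.259 (0.172 to 0.378), 24.4 against 153 CPM in hypothyroid FAP-like cells, a ratio of 0.160 (0.106 to 0.231), and 233 against 876 CPM in hypothyroid myogenic progenitor-like cells, a ratio of 0.266 (0.219 to 0.320). In the first-run columns the diets thus had nearly the same Cdkn1c level in cycling FAP-like cells and differed in the others. With all columns of each table, the ratio between diets over all FAP-like cells at 5 dpi was 0.894. The split into cycling and other cells was not repeated with those columns, so no diet difference is read from it.

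Cdk4 was above 1 in 5 of 5 pools, from 1.5 (0.655 to 3.51) in NK cell-like cells of hypothyroid mice to 3.70 (2.33 to 6.05) in those of control mice. Ccnd1 was higher in cycling FAP-like cells, at a ratio of 2.66 (2.10 to 3.36) in hypothyroid and 1.38 (1.04 to 1.84) in control mice, and 1.03 (0.801 to 1.33) in hypothyroid myogenic progenitor-like cells. Cdkn1a was 142 against 293 CPM in control FAP-like cells, a ratio of 0.485 (0.415 to 0.564), and 189 against 203 CPM in hypothyroid ones, a ratio of 0.929 (0.804 to 1.07). Ccnd2 was lower in cycling cells in 3 of 4 pools, from 0.630 (0.525 to 0.753), and 0 were past 2-fold. Cdkn1b and Cdk6 were past 2-fold in 0 of 5 pools each.

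**Figure D5:**
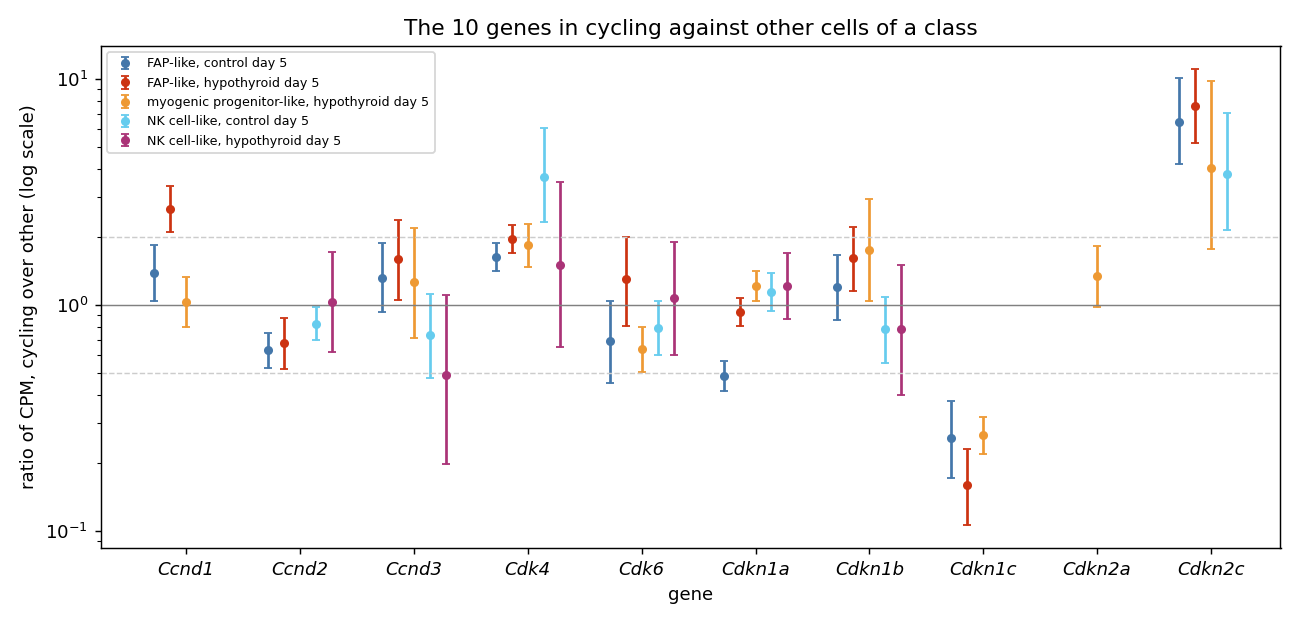
Ratio of CPM in cycling over other cells (log scale) for each gene in 5 pools at 5 dpi, with bars for the exact 95% interval and dashed lines at 2-fold either way. Cdkn2c lies above the upper line in 4 pools, Cdkn1c below the lower line in 3, and Cdk4 above 1 in 5.

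The members' partners on the pathway were described by a list of 25 genes around RB and E2F. In control FAP-like cells from day 0 to 5 dpi, 10 of its 18 genes with enough counts were past 2-fold, 8 higher and 2 lower, where 30.4% of all genes were, with a median ratio of 1.72 against 1.04 over all genes. Cks1b, a CDK-binding subunit, was 4.27-fold higher, Cdk2, the kinase that acts after CDK4 and CDK6, 5.17-fold, and its partner Ccne1 13.6-fold. In control myogenic progenitor-like cells from 5 to 14 dpi, 14 of 23 were past 2-fold, 13 of them lower, against 34.0% of all genes, with a median of 0.382 against 0.849. Between diets, 2 of 16 were past 2-fold in FAP-like cells at 5 dpi, near the 10.3% of all genes, both lower (Skp2, which targets p27 for destruction, at 0.320, and Ccne1 at 0.465), with a median of 0.767 against 0.793. In myogenic progenitor-like cells the count was 4 of 25 at 5 dpi, each lower, near the 15.7% of all genes, and 4 of 10 at 14 dpi, each higher, against 12.2%.

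A list of 19 p53 targets other than Cdkn1a gave the setting for that gene. In FAP-like cells at 14 dpi, where Cdkn1a had a ratio between diets of 0.993, 3 of 14 targets were past 2-fold against 5.47% of all genes, each lower in hypothyroid mice, at 0.324 for Phlda3, 0.346 for Trp53inp1 and 0.433 for Ccng1. Among myogenic progenitor-like cells at 14 dpi, where Cdkn1a was 2.47-fold higher, 3 of 11 targets were past 2-fold against 12.2% of all genes and each was lower, with a median of 0.608 over the list. In monocyte/macrophage-like cells at 5 dpi 4 of 13 targets were past 2-fold against 20.3% of all genes, each lower. Among them were Pmaip1 at 0.150 and Trp53inp1 at 0.211. The Cdkn1a ratio there was 0.595, but 1.28 with cells grouped by clustering, and the hypothyroid level was the higher in each C1q subset. Not all comparisons had only lower targets. In mural-like cells at 14 dpi 6 of 11 were past 2-fold, 3 higher and 3 lower, against 22.8%. The 1 target past 2-fold was higher in FAP-like cells at day 0 (1 of 15, against 5.66%) and in endothelial-like cells at 5 dpi (1 of 17, against 17.0%). In the myogenic progenitor-like pair, Cdkn1a and the targets past 2-fold thus lay on opposite sides of 1.

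The genes whose pattern over the 38 pools was most like each member's were found by Pearson correlation of log2(CPM + 1), as a description over pools that share libraries and differ in depth. Cdkn1c was most like Peg3, another imprinted gene, at 0.81, then Pcdh7 at 0.80 and Aif1l at 0.78. Cdkn2a was most like the myogenic genes Cdh15 at 0.73, Mymx at 0.71 and Tnnt2 at 0.69, and Cdkn2c was like Dap3 at 0.78 and the mitotic genes Tpx2 at 0.77 and Ckap2 at 0.74. Cdkn1a was most like Ctnna1 at 0.90, which also stood near Ccnd1 at 0.79, and Nfkbia and Gclm followed at 0.83 each. Ccnd1 was like Trim47 at 0.81 and Tead2 at 0.80. Ccnd2 was most like Fhip2a and Elovl5 at 0.82, then Acly at 0.81. Ccnd3 was most like Pdcd4 and Grk6 at 0.82, then Cnot6l at 0.81. Cdk4 was like 1110038B12Rik at 0.84, Nr2f6 at 0.83 and Cks1b at 0.82, and Cdk6 like Pfn1 and Maea at 0.79 and Sinhcaf at 0.78. Cdkn1b was like Zbtb24 and 4932438A13Rik at 0.78 and Dgka at 0.77. Among the members themselves the highest value was 0.63, between Cdkn1a and Ccnd1, followed by 0.59 between Cdkn1b and Ccnd3 and 0.53 between Ccnd2 and Ccnd3.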

How the data were processed

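The deposited values are log2(CPM + 1) per gene and cell, made by the authors from 10x Genomics 3′ libraries with Cell Ranger, build mm39, and Partek. Per cell, the positive value seen most often was read as 1 UMI, which gave back whole UMIs for 99.934% of 39334018 values above 0 (tolerance 0.02), and these counts were summed per cell class and library and scaled to 1000000. The files held no class labels. Each marker was scaled to 0.2 of its mean over the 100 cells with the most of it, a cell took the class with the highest mean score if that was at least 0.15 and led by 0.1, and myocyte-like cells also needed 15% of their UMIs in myocyte genes. The settings of this gate were chosen after marker values were seen. Doublets were not removed here and no caller was run. The members and gene lists were chosen with earlier results of these data known.

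Pools needed 30 cells, and ratios needed 20 UMIs together and 10 CPM in the higher pool, as for all genes listed. No p-value or SD was computed, because each diet and day has 1 library. The 10 members were named in every comparison, pathway genes only when past 2-fold (at most 5 per comparison), and for each member the 3 most similar genes among those reaching 50 CPM. E2F motifs were searched in RefSeq windows of 250 bases. Ratio and interval code was tested on simulated data. Alternatives were all columns of each file without copies, a stricter gate (0.25 and 0.15), Leiden clusters (2000 genes, 20 components, 15 neighbours, resolution 0.5), means over cells of CPM or log2(CPM + 1), median ratio scaling, thinning to 1000 UMIs and another UMI rule, and, chosen after seeing the data, leaving out the top cell of each pool and a myocyte limit of 10%. Tools were scanpy 1.11.5 and igraph 0.11.9 for clusters, scipy 1.17.1 for intervals, scikit-learn 1.9.0, pandas 2.3.3, numpy 2.4.6 and, for figures, matplotlib 3.10.9, under Python 3.11.15.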

Additional observations from a re-analysis of the deposited data

Results flagged for a closer look

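Cdkn1c stood on both sides of 1 between diets at 14 dpi, with intervals that exclude 1. The hypothyroid over control ratio was 2.57 in FAP-like, 3.60 in myogenic progenitor-like and 10.8 in monocyte/macrophage-like cells, and 0.420 in endothelial-like and 0.276 in mural-like cells. It was singled out because the direction differs between cell classes of the same libraries, and that difference was not tested. The monocyte/macrophage-like value rests on 1 control UMI, and was 0.457 with all columns of each table and 0.832 with thinned cells. The mural-like value was 0.976 with thinned cells and 0.999 with cells grouped by clustering. Over the alternatives the FAP-like, myogenic progenitor-like and endothelial-like values each stayed on their side of 1.

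Ccnd3 in myogenic progenitor-like cells stood at 0.345 between diets at 5 dpi and at 2.10 at 14 dpi. The 2 days differ in direction, and the difference was not tested.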

How the results depend on the processing

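Of the 60 ratios past 2-fold, 17 stayed past it under each of the 10 alternatives. The direction held in 58 with all columns of each file (42 past 2-fold), 60 with the stricter gate (57), 59 with clusters (53), 59 of 59 with means of CPM (51), 59 with means of log2 values (35), 60 with median ratio scaling (58), 54 with thinned cells (41), 60 with the smallest value as 1 UMI (57), 60 without the top cell (59) and 60 with the lower myocyte limit (59). The count of 25 diet ratios past 2-fold was 15 with all columns and 16 with thinned cells. The 61 ratios of pathway genes past 2-fold between diets were 38 with all columns, 39 with log2 means, 37 with thinned cells and 92 with the smallest value as 1 UMI.

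Reversed values, whose cause was not tested, were as follows. With all columns, Cdkn1c was 0.894 in FAP-like cells at 5 dpi and 0.457 in monocyte/macrophage-like cells at 14 dpi between diets. With thinned cells, the diet ratio was 1.29 for Cdkn1c in endothelial-like cells at 5 dpi, 0.832 for Cdkn1c in monocyte/macrophage-like cells at 14 dpi, and 1.66 and 0.614 for Cdkn2c in T cell-like cells at 5 and 14 dpi. Thinned control cells also gave 0.933 for Cdk4 in endothelial-like cells from day 0 to 5 dpi and 1.78 for Cdkn2a in myogenic progenitor-like cells from 5 to 14 dpi. In 4 of these 6 thinned values, those of 0.832, 0.614, 0.933 and 1.78, the pool that would be lower held 0 UMIs and stood at a floor of 3, which sets the value by construction. With clusters, Cdkn2c in T cell-like cells at 5 dpi was 1.71, and with log2 means Ccnd3 in control endothelial-like cells from day 0 to 5 dpi was 1.17.

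No paired analysis was possible because each diet and day has 1 library. Leaving out a library leaves no comparison. Depth limits Cdkn2a and Cdkn2c most, since 16 and 7 of 38 pools held 0 UMIs of them, and the intervals carry no spread between mice.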

Other observations

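FAP-like cells were also divided by Pi16, a marker of the universal adventitial fibroblast state, a split chosen after the values were seen. At 5 dpi Cdkn1c was 86.4 CPM in control cells with a Pi16 UMI and 23.1 CPM in those without, and 201 and 64.7 CPM in hypothyroid cells. At day 0 the order was the opposite, at 143 and 282 CPM in control and 314 and 526 CPM in hypothyroid cells. At 14 dpi it was 234 and 240 CPM in control and 679 and 380 CPM in hypothyroid cells. The hypothyroid level of Cdkn1c was thus the higher in both subsets at each day. With all columns of each table, the ratio between diets over all FAP-like cells at 5 dpi was 0.894. The direction at that day thus depends on the columns taken. Cells with a Pi16 UMI were deeper at day 0, with medians of 7487 and 4310 UMIs in control mice. They were also deeper at 14 dpi, with medians of 6624.5 and 3632 UMIs in control and 10160 and 7738 UMIs in hypothyroid mice.

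Ccnd1 was lower in FAP-like cells with a Pi16 UMI at 5 and 14 dpi. It was 28.3 and 71.2 CPM with and without Pi16 in control cells at 5 dpi, a ratio of 0.398 (0.304 to 0.516), and 31.3 and 49.2 CPM in hypothyroid cells, with a ratio of 0.636 (0.524 to 0.769). At 14 dpi it was 22.1 and 42.7 CPM in control and 7.81 and 17.9 CPM in hypothyroid cells. Cdkn1a was higher with Pi16 at 5 dpi, at 282 and 197 CPM in control and 256 and 146 CPM in hypothyroid cells.

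Among myogenic progenitor-like cells at 5 dpi, those with a Myog UMI held less Cdkn2a, at 17.6 against 51.7 CPM in control and 60.4 against 116 CPM in hypothyroid cells. In control cells they also held more Cdkn1a, at 970 against 318 CPM, whereas in hypothyroid cells the values were 462 and 407 CPM. Cells with a Myog UMI were 21 in control and 23 in hypothyroid mice, fewer than the 30 asked of a pool. The control Cdkn2a value in these cells rests on 6 UMIs. Their median depth was 13511 UMIs against 9732 in the other control cells, and 11084 against 14181 in hypothyroid cells. This split was chosen after the values were seen, and the difference between diets in it was not tested.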
